A study of Rattus norvegicus with 10 samples.

Results

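The genes described here encode the peptide transporter TAP (Tap1 and Tap2) and 3 chaperones of the endoplasmic reticulum (ER) that help class I molecules fold (Calr, Canx and Pdia3). Every probe set whose only gene symbol in the platform annotation was one of these 5 was taken. The 5 genes, of 4736 with a symbol of their own, were read by 13 of the 8740 probe sets tested: 2 for Tap1, 1 for Tap2, 3 for Calr, 5 for Canx and 2 for Pdia3. A probe set is the group of short probes on the array that reads 1 transcript. The rule used gene symbols alone. RNA came from primary microglia, the resident macrophages of the brain, grown from neonatal rat brain for 15 days. The IFN-gamma group was 3 cultures given interferon gamma at 100 U/ml for 16 hours, of which culture 1 was measured on 3 technical arrays. The control group was 5 independent cultures (1, 2, 3, 5 and 6) that received fresh medium alone. Strain and genotype are not given in the sources used here. Each flask held the tissue of a single brain, and no rat was treated: IFN-gamma acted on cells in the dish.

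Class I molecules of the major histocompatibility complex show short peptides from inside the cell to CD8 T cells. TAP is a heterodimer of the ATP-binding cassette (ABC) proteins Tap1 and Tap2, which pumps peptides from the cytosol into the ER. Newly made class I heavy chains first bind the membrane lectin calnexin (Canx). They then enter the peptide loading complex, where the soluble lectin calreticulin (Calr) and the thiol oxidoreductase ERp57 (Pdia3) work beside tapasin and TAP. Unlike TAP, these 3 chaperones fold many glycoproteins that have no part in antigen presentation. IFN-gamma acts on many genes through interferon regulatory factors (IRFs), while the ER stress response acts on chaperone genes through the factors ATF6 and XBP1.

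The stretches of DNA just upstream of the genes are shown because the transporter genes and the chaperone genes hold different known motifs there. RefSeq windows of 300 bases, 250 before and 50 after the gene start on build GRCr8, were found for 4 of the 5 genes, all but Pdia3, and are printed 5' to 3' on the strand of the gene. Capitals mark the IRF element (GAAA, any 2 bases, GAAA, on either strand) in Tap1 (chr20:4668494-4668793, minus strand) and Tap2 (chr20:4652247-4652546, minus strand). In Calr (chr19:40213117-40213416, plus strand) and Canx (chr10:35157808-35158107, minus strand) capitals mark the ER stress element (CCAAT, any 9 bases, CCACG, on either strand).
Tap1: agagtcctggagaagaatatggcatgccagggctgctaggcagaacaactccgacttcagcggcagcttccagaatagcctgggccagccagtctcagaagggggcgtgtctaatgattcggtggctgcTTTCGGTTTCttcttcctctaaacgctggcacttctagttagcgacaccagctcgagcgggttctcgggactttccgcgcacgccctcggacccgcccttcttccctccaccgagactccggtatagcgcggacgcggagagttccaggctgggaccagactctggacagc
Tap2: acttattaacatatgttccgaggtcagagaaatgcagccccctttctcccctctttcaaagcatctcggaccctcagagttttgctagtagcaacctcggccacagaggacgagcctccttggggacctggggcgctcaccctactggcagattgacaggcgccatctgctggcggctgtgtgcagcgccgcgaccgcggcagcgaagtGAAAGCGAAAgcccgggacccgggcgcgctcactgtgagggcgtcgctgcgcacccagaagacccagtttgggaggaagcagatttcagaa
Calr: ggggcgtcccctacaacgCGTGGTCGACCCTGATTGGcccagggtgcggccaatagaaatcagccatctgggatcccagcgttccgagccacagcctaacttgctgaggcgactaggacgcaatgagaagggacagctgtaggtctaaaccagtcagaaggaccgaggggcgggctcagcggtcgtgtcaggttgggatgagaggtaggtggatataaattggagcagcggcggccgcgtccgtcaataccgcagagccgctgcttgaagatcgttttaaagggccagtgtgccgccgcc
Canx: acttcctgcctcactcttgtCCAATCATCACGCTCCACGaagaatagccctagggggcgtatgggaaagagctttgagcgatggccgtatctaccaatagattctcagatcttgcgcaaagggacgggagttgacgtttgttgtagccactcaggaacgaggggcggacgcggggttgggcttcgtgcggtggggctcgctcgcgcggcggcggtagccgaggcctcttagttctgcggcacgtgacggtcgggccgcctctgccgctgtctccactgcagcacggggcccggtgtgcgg

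Counted from the gene start, with bases before it negative, the IRF element began at -121 in Tap1, where it read TTTCGGTTTC, and at -41 in Tap2, where it read GAAAGCGAAA. It was in neither chaperone window and in 3.92% of 33465 rat windows of the same length. The ER stress element began at -232 in Calr (CGTGGTCGACCCTGATTGG) and at -230 in Canx (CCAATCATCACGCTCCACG). It was in neither TAP window and in 22 of the 33465 windows (0.0657%). Of 2 further motifs, counts over both strands are given. The GC box GGGCGG was found 1 time each in Tap1, Calr and Canx and not in Tap2, and 33.1% of all windows held it. The CCAAT box, whose letters are also the first 5 of the ER stress element, was found 3 times in Calr, 2 times in Canx and in neither TAP window, against 37.5% of all windows. A match is a match of letters, and binding was not measured.

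Each level below is a normalised value of log2(signal + 16), on which a signal of 0 is 4. Fold changes are IFN-gamma over control on that scale, so those of dim probe sets are understated. Levels of different probe sets are not set against each other, since probes differ in brightness. The test was limma with Benjamini-Hochberg adjustment over all 8740 probe sets and a threshold of 0.05. By this test 81 probe sets of the table were higher and 53 lower with IFN-gamma, against 100 and 27 with array medians subtracted and 38 and 1 with no scaling. The median deposited signal ran from 11.1 to 23.7 over IFN-gamma arrays and from 7.4 to 20.2 over control arrays, and the dimmest array was control culture 3.

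Tap1 rose with IFN-gamma, while the probe set of Tap2 and those of the 3 chaperones did not pass the test. Of the 13 probe sets 2 were higher, both of Tap1 and both built on the same transcript, and 0 were lower. Of all probe sets 0.927% were higher and 0.606% lower, 1.53% in either direction. All 3 TAP probe sets and 0 of 10 chaperone probe sets had the 3 IFN-gamma cultures above all 5 controls, as did 4.28% of the table, and 1 of the 13, a Calr probe set, had them below, as did 3.4% of it. At an unadjusted p under 0.05 by limma, 3 of 3 TAP and 3 of 10 chaperone probe sets passed, where 10.5% of all probe sets did. The number of arrays limits the precision. In bulk RNA, fewer cells of a type and less RNA per cell cannot be told apart.

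**Figure D1:**
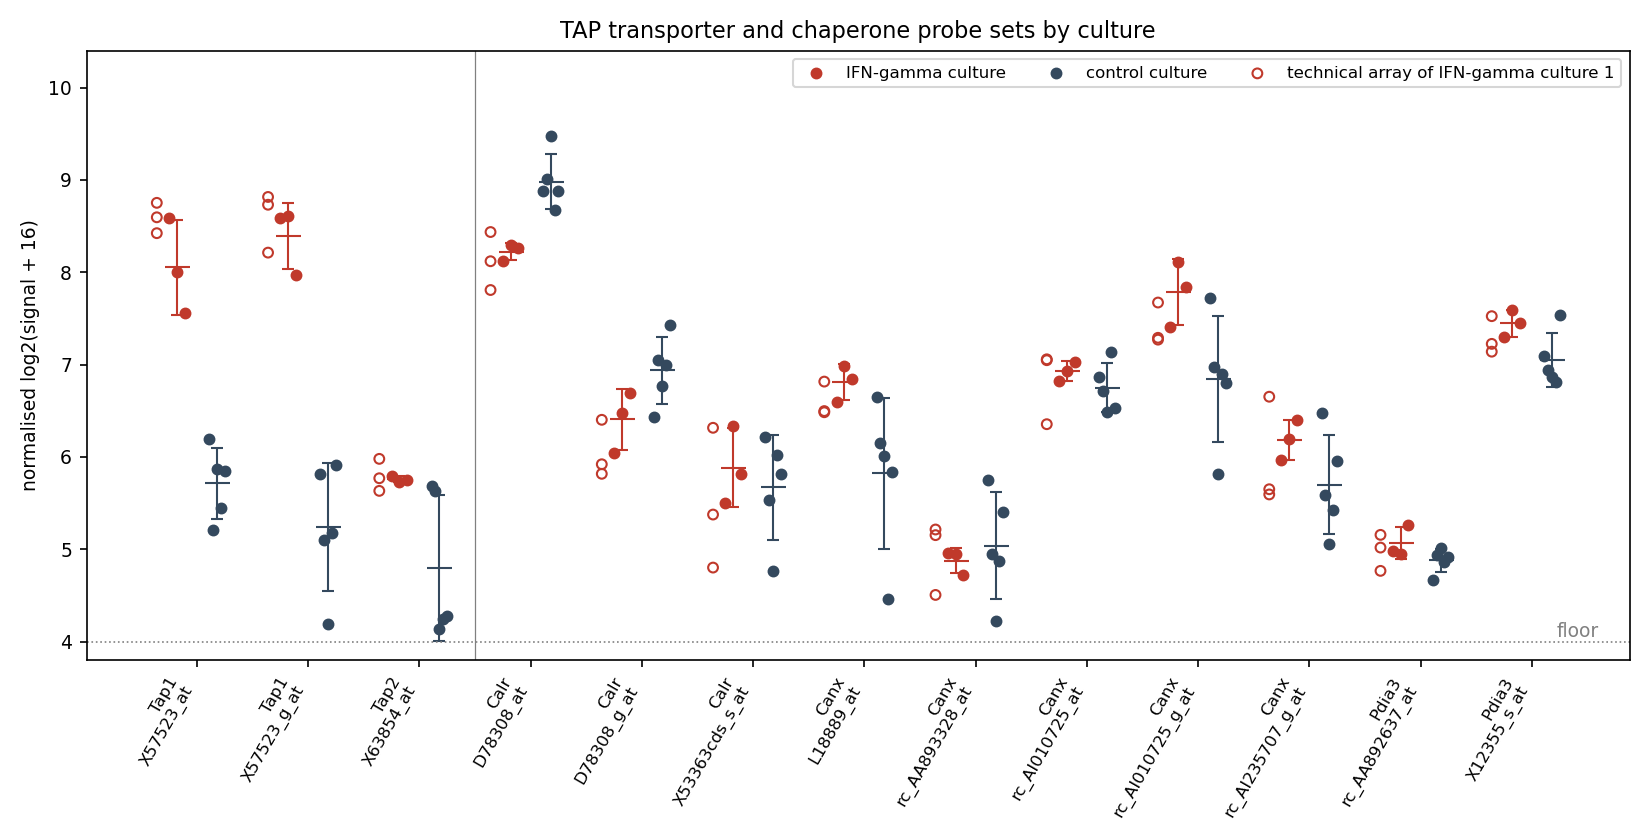
Normalised log2(signal + 16) of the 13 probe sets (x axis) in each culture. Filled points are cultures, horizontal marks with bars are the mean and SD of 3 IFN-gamma or 5 control cultures, and open circles are the 3 technical arrays of IFN-gamma culture 1. Both Tap1 probe sets separate the groups widely, at 7.56 or more with IFN-gamma and at 6.19 or less in controls, while Tap2 controls 1 and 2 sit just under the IFN-gamma cultures.

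Tap1 encodes one chain of the TAP pump. By its brighter probe set, X57523_at, it stood at 8.59, 8.002 and 7.56 in IFN-gamma cultures 1, 2 and 3, against 6.19, 5.21, 5.87, 5.45 and 5.85 in control cultures 1, 2, 3, 5 and 6. Every IFN-gamma culture was above every control, and culture 3 was the lowest of the treated cultures. The means were 8.05 ± 0.516 (SD, n = 3) with IFN-gamma and 5.71 ± 0.386 (SD, n = 5) in controls, a 5.06-fold rise (log2 fold change 2.34, 95% confidence interval 1.69 to 2.99, limma adjusted p = 0.00301). By this size it ranked 28 of the 8740 probe sets. The second probe set, X57523_g_at, stood at 8.59, 8.61 and 7.98 with IFN-gamma and at 5.81, 5.10, 4.19, 5.18 and 5.91 in controls. Its groups did not overlap either, and control culture 3, the dimmest array, was near the floor. Its rise was 8.89-fold (log2 fold change 3.15, interval 2.30 to 4.005, limma adjusted p = 0.00268), rank 14.

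The rise of Tap1 was already plain in the deposited signal before any scaling. Over the 5 IFN-gamma arrays X57523_at ran from 221 to 1020 and over the 5 control arrays from 15.5 to 76.3. The technical arrays of culture 1 gave deposited signals of 239.8, 1019.5 and 221.0, a range of 4.61-fold that came down to 8.42, 8.75 and 8.60 after normalisation. That technical range of 0.33 was narrower than the 1.03 between the 3 IFN-gamma cultures.

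Tap2 encodes the other chain, and its single probe set, X63854_at, was dim. It stood at 5.79, 5.73 and 5.75 in the 3 IFN-gamma cultures, against 5.68, 5.63, 4.14, 4.24 and 4.27 in control cultures 1, 2, 3, 5 and 6. Treated cultures lay within 0.06 of each other, whereas the controls fell into 2 near the treated level and 3 near the floor. In deposited signal the IFN-gamma arrays 1a, 1b, 1c, 2 and 3 read 24.9, 79.2, 28.4, 40.0 and 53.7, against 45.6, 23.6, 1.1, 3.4 and 4.1 in controls 1, 2, 3, 5 and 6, so the deposited signals overlapped. The separation of normalised values rests on averaging the technical arrays of culture 1: array 1a alone, at 5.63, lay below control 1 and level with control 2. The means were 5.76 ± 0.0312 (SD, n = 3) with IFN-gamma and 4.79 ± 0.79 (SD, n = 5) in controls. The log2 fold change was 0.97 (interval 0.06 to 1.87) and did not pass over all probe sets (limma adjusted p = 0.427). With a pseudocount of 1 in place of 16 it was 2.13, and with 64 it was 0.40, neither of which passed.

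Calr encodes calreticulin, a calcium-binding lectin of the ER lumen. Its brightest probe set, D78308_at, stood at 8.12, 8.29 and 8.26 with IFN-gamma, against 8.88, 9.01, 9.48, 8.67 and 8.88 in controls. All 3 treated cultures were below all 5 controls. The log2 fold change was -0.76 (interval -1.21 to -0.31), which did not pass over all probe sets (limma adjusted p = 0.141). Its size depended on the scaling: it was -0.46 with arrays scaled to a trimmed mean, -0.15 with array medians subtracted and -0.03 with no scaling. The technical arrays of culture 1 spread over 0.63, more than the 0.17 between the 3 IFN-gamma cultures. D78308_g_at, built on the same transcript, had -0.53 (interval -1.09 to 0.03), and X53363cds_s_at, built on another, had 0.22 (interval -0.54 to 0.97). Both had overlapping groups (limma adjusted p = 0.502 and 0.925), so the Calr probe sets differed in sign.

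Canx encodes calnexin, the membrane-bound relative of calreticulin. Its brightest probe set, rc_AI010725_g_at, stood at 7.41, 8.11 and 7.84 with IFN-gamma, against 7.72, 6.98, 5.81, 6.90 and 6.80 in controls. Control culture 1 lay among the treated cultures and control culture 3 was far below them. The log2 fold change was 0.95 (interval 0.11 to 1.79, limma adjusted p = 0.386). L18889_at stood at 6.60, 6.99 and 6.84 with IFN-gamma, against 6.65, 6.15, 6.02, 4.46 and 5.83 in controls. Control culture 1 was inside the treated range and control culture 5 near the floor, for a log2 fold change of 0.99 (interval 0.04 to 1.93). The other 3 were rc_AI235707_g_at at 0.49, rc_AI010725_at at 0.18 and rc_AA893328_at, a dim probe set, at -0.16. No Canx probe set passed, with limma adjusted p between 0.386 and 0.944, and all 5 had overlapping groups.

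Pdia3 encodes ERp57, which forms disulfide bonds in glycoproteins held by calnexin or calreticulin. X12355_s_at stood at 7.30, 7.59 and 7.45 with IFN-gamma, against 7.09, 6.94, 6.87, 6.81 and 7.53 in controls. Control culture 6 was as high as the treated cultures, and the 4 others were below them. The log2 fold change was 0.40 (interval -0.05 to 0.85, limma adjusted p = 0.554). The dim rc_AA892637_at had 0.19 (interval -0.17 to 0.55, limma adjusted p = 0.815). The upper bounds of both intervals, 0.85 and 0.55, lay below 1.69, the lower bound for Tap1 by X57523_at. Those of Tap2 (1.87) and of the Canx probe sets rc_AI010725_g_at (1.79) and L18889_at (1.93) lay above it. Those of the remaining Canx and Calr probe sets lay below it.

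**Figure D2:**
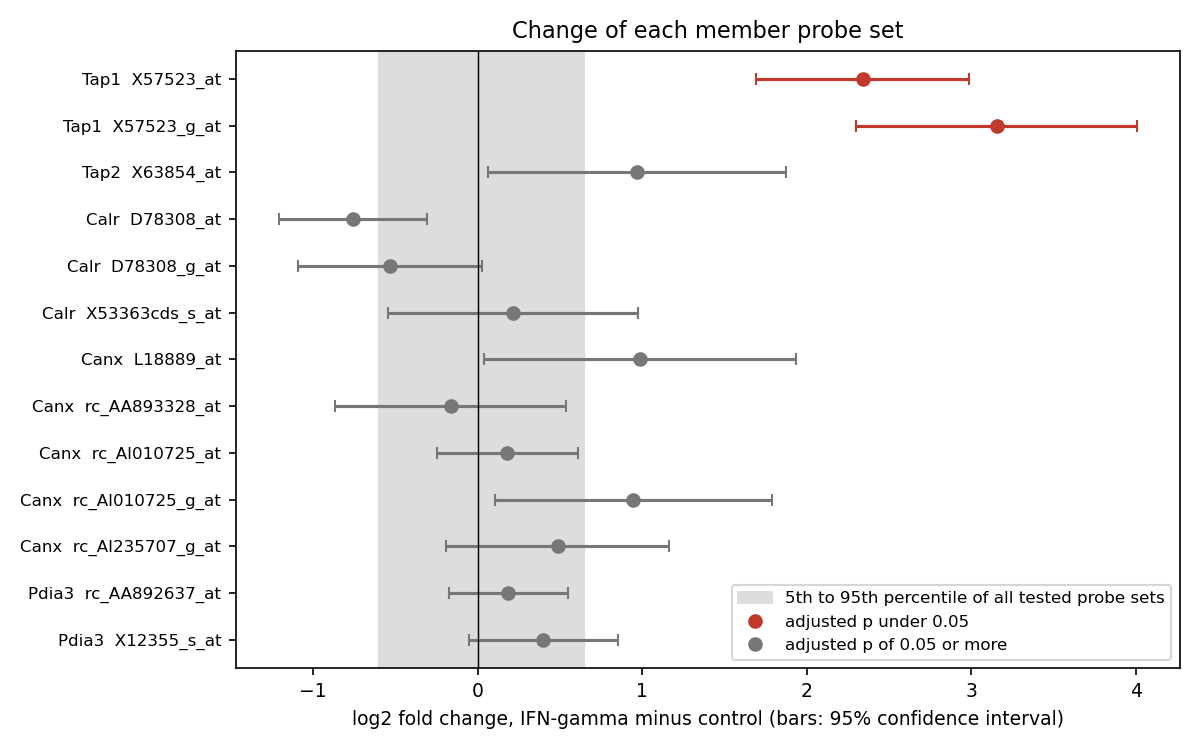
Log2 fold change of IFN-gamma over control (x axis) for each of the 13 probe sets (y axis), with 95% confidence intervals from limma. The grey band spans -0.60 to 0.64, the 5th to 95th percentile of all tested probe sets; both Tap1 points lie far right of it, and Tap2, 2 Canx points and 1 Calr point lie just outside it with intervals that reach into it.

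Transporter and chaperone genes were compared by taking, within each culture, the normalised level of a TAP probe set minus that of a chaperone probe set, which follows how far their changes differ. The brightest probe set of each gene was used, and the 6 pairs were tested by an exact permutation test, two-sided, which had 56 ways to divide the 8 cultures and a smallest p of 0.0179. Tap1 minus Calr was 0.47, -0.29 and -0.70 in IFN-gamma cultures 1, 2 and 3, against -2.69, -3.80, -3.60, -3.22 and -3.03 in the controls. The groups were far apart. By X57523_at and D78308_at the ratio of Tap1 to Calr was 8.55-fold higher with IFN-gamma (difference 3.10 on the log2 scale, exact permutation p = 0.0179, 0.0537 adjusted over the 6 pairs). Part of this size is the fall of D78308_at (-0.76), which did not pass by limma. The other Calr probe sets had -0.53 and 0.22, and pairs with them were not taken. Tap1 minus Pdia3 was 1.29, 0.41 and 0.11 with IFN-gamma and lay between -1.73 and -0.90 in controls. Again the groups did not overlap, with a difference of 1.94 (exact permutation p = 0.0179, adjusted p = 0.0537). Both sat at the smallest p of the design and missed the threshold after adjustment. In deposited signal, the ratio of Tap1 to Calr was 0.569 to 2.2 over the 5 IFN-gamma arrays and 0.056 to 0.112 over the 5 control arrays.

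Tap1 minus Canx overlapped between the groups, because control culture 3, at 0.06, lay above IFN-gamma cultures 2 and 3, at -0.11 and -0.28. The difference was 1.39 (exact permutation p = 0.0714, adjusted p = 0.107). With 1 culture left out it ran from 0.93, without IFN-gamma culture 1, to 1.76, without control culture 3. Tap2 minus Calr lay between -2.56 and -2.33 with IFN-gamma and between -5.34 and -3.20 in controls, with no overlap and a difference of 1.72 (exact permutation p = 0.0357, adjusted p = 0.0714). Tap2 minus Pdia3 and Tap2 minus Canx differed by 0.57 and 0.02 between the groups, with overlap in both (exact permutation p = 0.357 and 0.946, adjusted p = 0.428 and 0.946). These differences depend on the floor that Tap2 lay near in 3 controls: with a pseudocount of 1, Tap2 minus Calr was 2.92, Tap2 minus Pdia3 1.68 and Tap2 minus Canx 1.06, and none passed. A p above the threshold does not show that Tap2 and these chaperones changed alike.

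**Figure D3:**
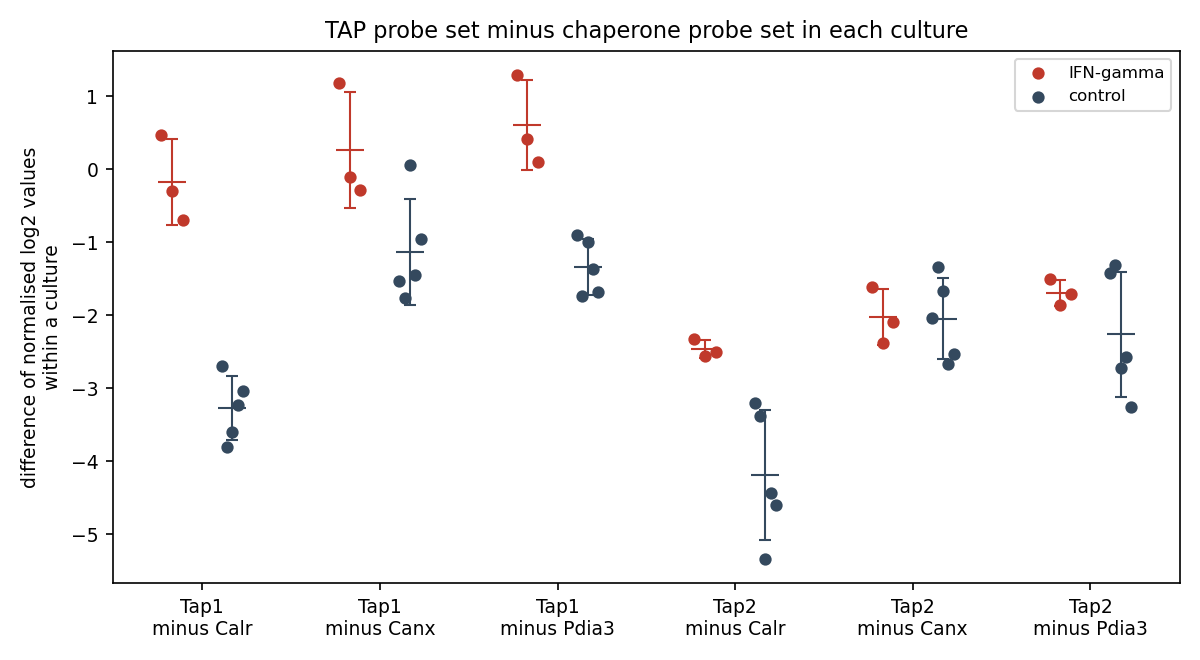
Difference of normalised log2 values between a TAP probe set and a chaperone probe set within each culture (y axis) for 6 pairs (x axis). Points are 3 IFN-gamma and 5 control cultures, marks with bars are mean and SD. The groups stand apart for Tap1 minus Calr, Tap1 minus Pdia3 and Tap2 minus Calr, and overlap for the other 3 pairs.

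The genes that work beside TAP were higher, while other folding factors and other ABC transporters showed no called change. A gene with several probe sets is represented here by the brightest. Of 11 measured class I pathway partners 8 rose and 0 fell, with a median log2 fold change of 1.63, against 0.887% of all 4736 genes higher, 0.697% lower and a median of -0.02. They included the immunoproteasome subunit genes Psmb9 (3.33, limma adjusted p = 3.06e-05) and Psmb8 (2.80, limma adjusted p = 0.00268), which cut the peptides that TAP carries. B2m, which encodes the class I light chain, rose by 1.63 (limma adjusted p = 0.0017), as did the PA28 activator genes Psme2 and Psme1 and the heavy chain genes RT1-CE12, RT1-S3 and RT1-CE16, by 1.003 to 1.84. RT1-M3-1, RT1-A3 and RT1-N3, also heavy chain genes, had 0.86, 0.69 and 0.62 and did not pass. The list of 11 does not hold every measured class I gene. Outside it, RT1-A rose by 1.47 (limma adjusted p = 0.00384), and RT1-M5, at 0.42, did not pass. Some heavy chain genes are alike in sequence, and their probe sets can bind each other's transcripts. Tapbp, Tapbpl and Erap1 were not analysed here.

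Of 17 other ER folding factors 0 passed in either direction by limma (2 at an unadjusted p under 0.05, where 11.1% of all genes passed), with a median log2 fold change of -0.01. The 4 brightest were P4hb, a disulfide isomerase (0.01), Hsp90b1, the ER form of HSP90 (0.07), Ppib, a prolyl isomerase (-0.46), and Fkbp2, another prolyl isomerase (-0.23). Hspa5, the ER chaperone BiP and a standard gene of the ER stress response, was named after its values were seen. It averaged 7.15 ± 0.373 (SD, n = 3) with IFN-gamma and 7.00 ± 0.222 (SD, n = 5) in controls (log2 fold change 0.15, limma adjusted p = 0.909). Of 22 listed genes of N-glycan attachment and the calnexin cycle 7 were measured, so the cycle as a whole was not read. Of these 7 genes 0 passed (1 at an unadjusted p under 0.05), with a median of -0.06. The brightest were subunit genes of oligosaccharyltransferase, the enzyme that attaches N-glycans: Dad1 (-0.06), Rpn2 (0.13), Krtcap2 (0.08) and Rpn1 (0.28). The rest, named after their values were seen, were Mogs (-0.19), Ddost (-0.24) and Lman1 (-0.82, limma adjusted p = 0.411). Of 13 measured ABC transporters other than TAP 0 passed (0 at an unadjusted p under 0.05), between -0.59 and 0.59. The brightest of them were Abcc9 (0.59), Abcd3 (0.30), Abcb11 (0.12) and Abcc6 (0.22). Of the 17 folding factors 6, and of the 13 ABC transporters 6, averaged under 5, where the floor of 4 limits what a change could show.

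**Figure D4:**
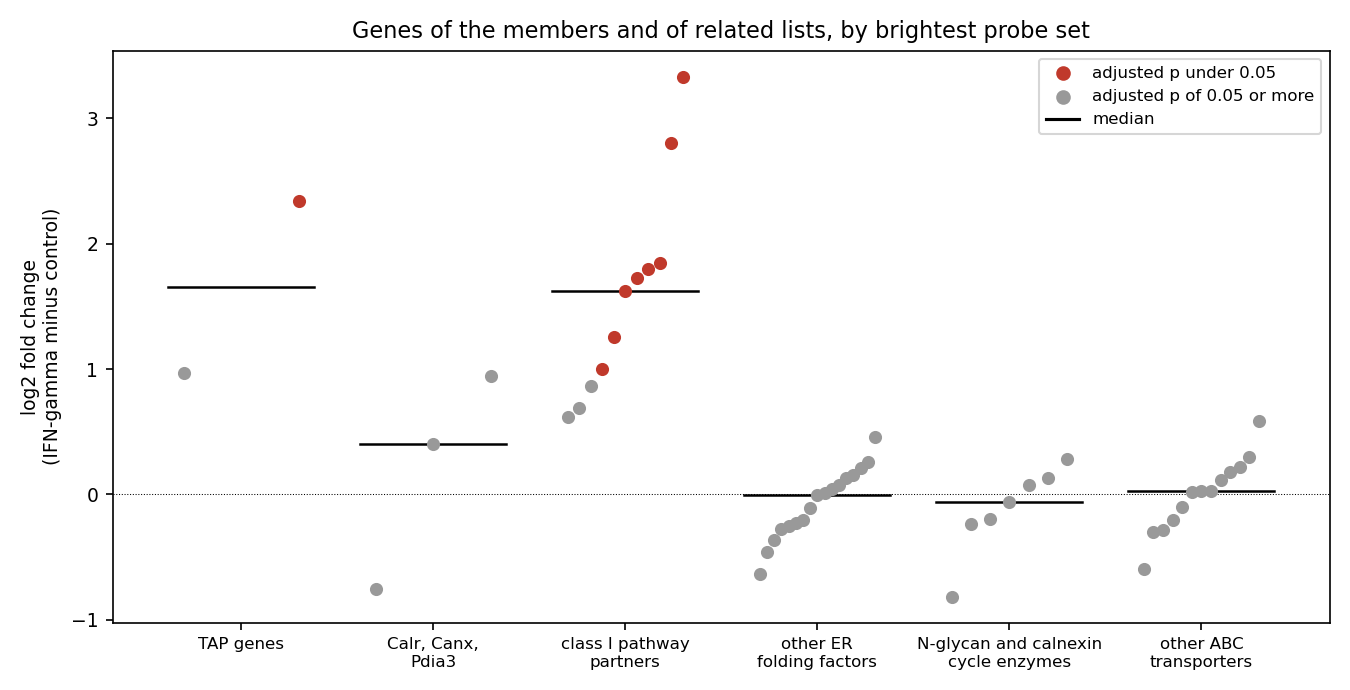
Log2 fold change of IFN-gamma over control (y axis) for the member genes and 4 related lists (x axis), each point a gene by its brightest probe set and each bar the median. Red points passed an adjusted p of 0.05. Tap1 lies among the class I pathway partners that rose, whereas Calr, Canx and Pdia3 are grey, as are all genes of the folding, glycan and ABC lists.

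Tap1 and Tap2 lie side by side in the class II region of chromosome 20, with Psmb8 between them and Psmb9 next to Tap1. Tap1 and Psmb9 are read in opposite directions from neighbouring starts, and their 300-base windows share 44 bases. The IRF element was found 1 time in the window of Psmb8 and 0 times in that of Psmb9. In chromosome order Tap2, Psmb8, Tap1 and Psmb9 had log2 fold changes of 0.97 ± 0.402, 2.80 ± 0.335, 2.34 ± 0.288 and 3.33 ± 0.202 (SE, 3 IFN-gamma and 5 control cultures). The value of Tap2 depends on the floor its controls lie near, so these 4 are given without an order. Around them 6 protein-coding genes on each side were looked up, a choice made after the values were seen, and 13 of the 16 genes were measured. The class II chain genes RT1-Da, RT1-Db1, RT1-Ba and RT1-Bb passed, at 2.98 to 4.77. RT1-DOb, between them and Tap2, had 0.13, and RT1-DOa and RT1-Ha beyond the DM genes had 0.18 and 0.16, and none of these 3 passed. The brightest RT1-DMb probe set did not pass (1.84, limma adjusted p = 0.141), although both of its dimmer ones did (2.61 and 1.97, limma adjusted p = 0.0121 and 0.021).

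**Figure D5:**
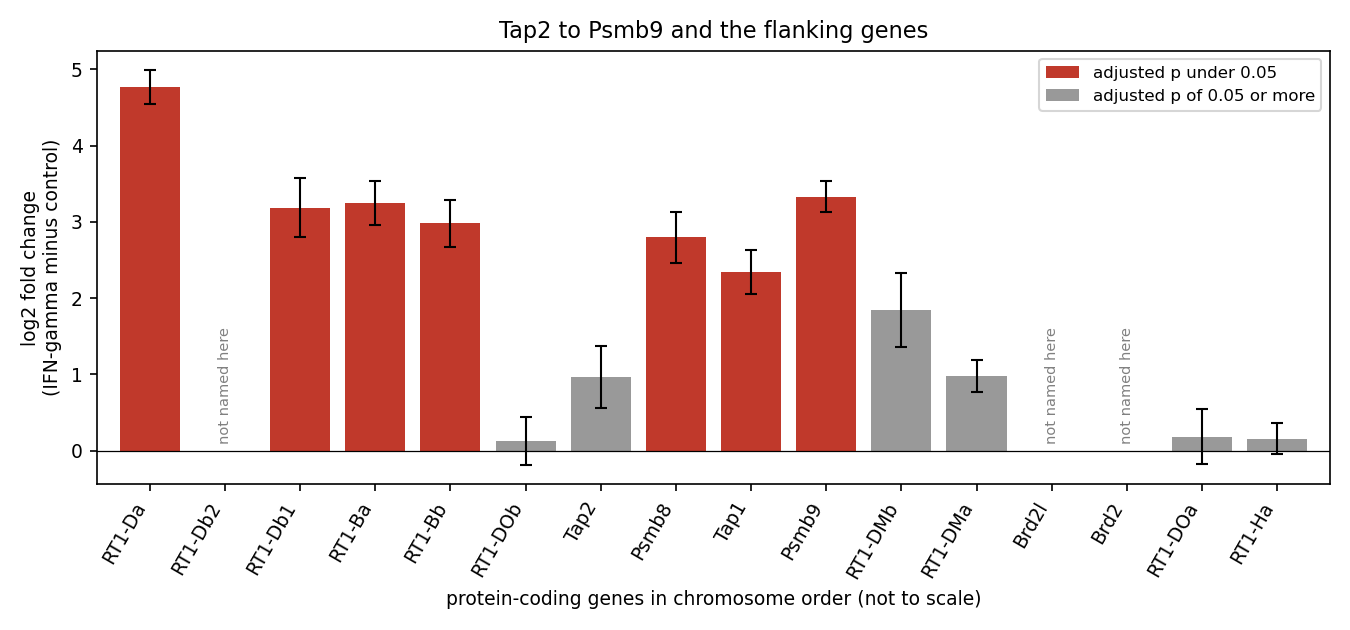
Log2 fold change of IFN-gamma over control (y axis, bars with SE from limma) for 16 protein-coding genes in chromosome order (x axis, not to scale). Red bars passed an adjusted p of 0.05. Psmb8, Tap1 and Psmb9 are red beside a grey Tap2, and RT1-DOb, RT1-DOa and RT1-Ha stand near 0.

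Over the 8 cultures the genes whose level followed that of Tap1 (X57523_at) most closely were Taldo1 (Pearson r = 0.98), Pomp (0.97), Serping1 (0.96), Irgm2 (0.96) and Tkt (0.96), out of 956 genes with a mean level of at least 6. Taldo1 and Tkt encode enzymes of the pentose phosphate pathway, Pomp a proteasome assembly factor, Serping1 the C1 inhibitor and Irgm2 an interferon-induced GTPase. Within the 5 controls alone the values were 0.957, 0.839, 0.603, 0.875 and 0.997. Taldo1, Serping1 and Irgm2 rose with IFN-gamma (limma adjusted p = 0.0125, 0.00557 and 0.00036), while Pomp and Tkt, at log2 fold changes of 0.78 and 1.22, did not pass. Tap2 was followed most closely by Dbnl (0.97), Arf5, Dynlt1, Dnaja1 and Ptpn6 (0.89 to 0.91), none of which passed. The member genes were left out of these lists. Tap2 correlated with Tap1 at 0.608 (X57523_at) and 0.688 (X57523_g_at). With the brightest probe sets of Canx, Pdia3 and Calr it correlated at 0.81, 0.391 and -0.623. Canx was followed by Ap2m1, H2az1, Rap1b, Anapc5 and Slc35b1 (0.96 to 0.98), Pdia3 by Actb (0.96), Vamp3, Unc119, Ndufs7 and Slc2a1 (0.89 to 0.90), and Calr by Capn1 (0.95), Igf1 (0.93), Ube2j2, Rhoc and Tpsb2 (0.92 to 0.93). Of these 15 genes 1 passed, the growth factor gene Igf1, which was lower with IFN-gamma (log2 fold change -1.86, limma adjusted p = 0.00176). The points share normalisation and the group difference, and these r values are a description.

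Markers bore on what the cultures held. Of 10 measured microglial and macrophage markers Lyz2, C1qb and C1qc rose, and Aif1 was at 8.24 ± 0.228 (SD, n = 3) with IFN-gamma and 7.81 ± 0.529 (SD, n = 5) in controls. The other 6 did not pass. Among them Cd14, Cx3cr1 and Fcgr2b had log2 fold changes of -0.34, -0.29 and -0.28, and Itgam, Ptprc and Csf1r 0.79, 0.25 and 0.15. The summed signal of the 10 ran from 7140 to 8290 with IFN-gamma and from 2460 to 3580 in controls, most of it from Lyz2. Without Lyz2 it ran from 1770 to 2090 with IFN-gamma and from 1100 to 1330 in controls. Of 8 measured astrocyte markers 1 was lower, Glul, which macrophages also express (log2 fold change -1.66, limma adjusted p = 0.00301). Their summed signal ran from 254 to 310 with IFN-gamma and from 579 to 960 in controls. Without Glul the ranges overlapped, at 111 to 135 with IFN-gamma and 114 to 221 in controls, and none of the other 7 passed. Of those 7, 4 averaged under 5 over the 8 cultures, and Slc1a3, the brightest, averaged 6.12. Dim markers were found in the microglial list too, such as Csf1r at 4.79. Of 6 oligodendrocyte, 6 neuron and 7 fibroblast or endothelial markers 0 passed by the brightest probe set (1, 0 and 3 at an unadjusted p under 0.05), and a dimmer Col1a1 probe set was lower (log2 fold change -1.20, limma adjusted p = 0.0239). The part of these shifts in the values of Tap1, Tap2, Calr, Canx and Pdia3 was not tested.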

How the data were processed

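The authors deposited 1 table of signal intensity on a linear scale, with 1 value per probe set for each of 10 arrays. MAS5 and GCRMA are named, per the submitters' processing notes, with no version and no role, so it is unknown here which of them made the intensities. Of 8799 probe sets, 59 array controls were left out of the tests. Signals were taken as log2(signal + 16), quantile normalised over the 10 arrays, and technical arrays 1a, 1b and 1c were averaged, so a replicate is a culture. No pair of arrays shared the same signal at more than 81 probe sets. Groups were compared by limma (version 3.58.1, R version 4.3.3) in a model with no term but the group, by its moderated two-sided test, after the code was tested on simulated data.

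All 13 probe sets matched RefSeq (GRCr8) by Entrez identifier. Of the tested probe sets 7006 had 1 symbol, 308 several and 1426 none. The members and lists were chosen with earlier results of these data known. Genes were named by a fixed rule: every member, list genes that passed or else the 4 brightest, and the 5 closest genes by Pearson correlation. In all, 21 other settings were tried: scaling, pseudocounts of 1 and 64, filters, technical arrays singly or as a random block, the eBayes prior, a replicate block, and leaving out each culture. A further motif searched in the promoter windows is not reported here.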

Additional observations from a re-analysis of the deposited data

How the results depend on the processing

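The Tap1 probe sets kept their sign in each of the 21 (X57523_at) and 20 (X57523_g_at) other settings, with log2 fold changes of 1.66 to 2.77 and 2.16 to 4.09. X57523_g_at passed in all of its 20. X57523_at passed in 20, the exception being the fit with culture number as a replicate block (2.29, limma adjusted p = 0.0782). Whether equal numbers mark paired cultures is not known here. Deviations of same-numbered cultures correlated at -0.039, -0.004 and 0, and 0 of 3 IFN-gamma cultures correlated best with the control of their own number. Over all combinations of an IFN-gamma and a control culture the values were small, from -0.107 to 0.143, so this check cannot exclude pairing. Under the block the table held 17 higher and 5 lower probe sets. No probe set of Tap2, Calr, Canx or Pdia3 passed in any setting. With a pseudocount of 64 the differences Tap1 minus Calr (2.33), Tap1 minus Pdia3 (1.35) and Tap2 minus Calr (1.07) passed (exact permutation p adjusted over 6 pairs 0.0357 each). In the other 16 settings none of the 3 passed, with adjusted p up to 0.143, 0.143 and 0.286. These largest values came from leaving out an IFN-gamma culture. Leaving out a culture, as 8 settings did, leaves fewer ways to divide the cultures and raises the smallest p, so a failure there says little. Tap2 minus Canx ran from -0.31 to 1.06 over 17 settings and passed in none.

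Over the whole table the higher and lower calls were 38 and 1 with no scaling, 100 and 27 with array medians subtracted, 42 and 25 with a pseudocount of 1, and 39 and 20 without probe sets of reduced specificity, a setting that tests fewer probe sets. With all arrays and culture as a random block they were 124 and 73. With 1 culture left out they ran from 47 to 105 higher and from 21 to 48 lower. The cause of the other shifts was not tested. Dim probe sets, among them those of Tap2 and the second of Pdia3, lie near the floor, which limits what a fall could show.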

Other observations

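Over the 8 cultures, probe sets of the same gene varied in how far they moved together. The 10 pairs of Canx probe sets correlated at -0.11 to 0.89 (median 0.53), and 9 of them were above 0. The 3 pairs of Calr probe sets correlated at -0.55, -0.07 and 0.52, of which the 0.52 was between D78308_at and D78308_g_at, built on the same transcript. The Pdia3 pair correlated at 0.33 and the Tap1 pair, built on the same transcript and with a large group difference in common, at 0.94. These are Pearson r values, a description over 8 cultures that share normalisation.

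The technical arrays of IFN-gamma culture 1 differed most at X53363cds_s_at of Calr, where the deposited signals were 19.0, 113.5 and 8.4 and the normalised values spanned 1.51, more than the 0.84 between the 3 IFN-gamma cultures. For Tap2 the technical arrays spanned 0.35 and the 3 IFN-gamma cultures 0.06. For X57523_g_at of Tap1 they spanned 0.60 and 0.64.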
